A study of Mus musculus with 9 samples.

Results

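Inflammasome and pyroptosis genes were followed in RAW264.7 cells, a mouse macrophage line, through 9 genes chosen by symbol for their roles in the pathway. They were the sensors Nlrp3, Nlrc4 and Nlrp1b, the kinase Nek7, the adaptor Pycard, the caspases Casp1 and Casp4, the pore protein Gsdmd and the membrane rupture protein Ninj1. All 9 were found among the 54532 genes with deposited values. The study compared 3 groups of 3 libraries each. Control cells were untreated, LPS cells received lipopolysaccharide, a component of the bacterial outer membrane, at 1 μg/ml for 6 h, and LPS + G-CDs cells received the same LPS dose plus G-CDs at 400 μg/ml for 6 h. G-CDs are carbon dots made from roasted Glycyrrhiza by heating in water. The sample titles name G-CDs in the last group, its treatment label gives LPS alone, and the G-CDs dose comes from the study's design text. Neither the labels nor the methods say that the libraries of a group came from separate cultures. The p-values thus rest on a spread between libraries, pooled over the 3 groups, which may be technical. Cells given G-CDs without LPS were not analysed here.

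An inflammasome is a protein complex in which a sensor, through the adaptor ASC encoded by Pycard, gathers caspase-1. Caspase-1 then cuts the precursors of interleukin-1β and interleukin-18 and cuts gasdermin D, whose freed end forms pores in the cell membrane. In macrophages a first signal such as LPS raises the transcripts of Nlrp3 and Il1b, and a separate signal is needed before the complex assembles. The mouse enzyme encoded by Casp4, also called caspase-11, binds LPS in the cytosol and cuts gasdermin D without an inflammasome sensor, and Ninj1 completes the rupture of the dying cell. RAW264.7 cells are known in the field for lacking ASC, which makes Pycard the member to look at in this line.

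Levels are given as FPKM, the reads on a gene per unit of its length and per unit of the authors' library size. Levels of different genes can be set side by side only as far as the deposited lengths hold. That length was 3800 bases for Pycard and 3710 bases for Casp4, whose longest transcript has 1901 bases. Each library had between 14752400 and 17312255 reads on genes. Of the 10 macrophage markers examined, 9 had a mean above 1 FPKM in each group, while Mertk was listed at 0 in all 9 libraries. The summed markers of T cells, B cells, fibroblasts, epithelium and erythroid cells stayed at or below 0.52 FPKM in every library. Of the 5 neutrophil markers, Elane, Mpo and Ly6g were at 0 throughout, and S100a8 brought the sum to between 0.797 and 2.15 FPKM in the LPS + G-CDs libraries, against at most 0.73 in the others. The part of that difference in the results was not tested. Replicates were closest in the LPS group, where the median SD of a gene was 0.0867 on the log2 scale, against 0.244 in control and 0.259 in LPS + G-CDs cells. The spread was partly related to the length of genes. For long genes, with a median of 11447 bases, the median deviation from the group mean was 0.328 in LPS + G-CDs replicate 1 and -0.313 in replicate 3.

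The promoter windows of Nlrp3 and Casp4 are shown because both genes rose with LPS. Each window is from RefSeq and runs from 250 bases before to 50 bases after a transcript start (GRCm38.p6), and both genes lie on the + strand. The capitals in the Casp4 window mark matches to an NF-κB site, whose first bases lie 93 and 14 bases before the start. NF-κB is the transcription factor that LPS activates through its receptor.
Casp4 chr9:5308599-5308898: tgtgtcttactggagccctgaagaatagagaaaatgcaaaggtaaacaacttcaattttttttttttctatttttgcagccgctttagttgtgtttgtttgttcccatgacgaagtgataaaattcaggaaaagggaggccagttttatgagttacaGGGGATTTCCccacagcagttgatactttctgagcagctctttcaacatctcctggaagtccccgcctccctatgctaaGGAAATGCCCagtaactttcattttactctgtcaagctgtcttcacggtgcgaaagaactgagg
Nlrp3 chr11:59541319-59541618: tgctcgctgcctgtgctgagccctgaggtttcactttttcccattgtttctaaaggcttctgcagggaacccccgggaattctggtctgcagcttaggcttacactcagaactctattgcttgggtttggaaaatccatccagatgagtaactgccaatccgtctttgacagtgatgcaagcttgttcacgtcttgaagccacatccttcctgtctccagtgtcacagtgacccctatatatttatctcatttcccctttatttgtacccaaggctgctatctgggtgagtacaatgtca
The letters searched on both strands were GGG, any 2 bases and TTTCC for the NF-κB site, GAAA, any 2 bases and GAAA for the interferon response element, and TTC, any 3 bases and GAA for the gamma-activated site. Of the members, 8 had a window, and only the Casp4 windows held any of the 3 motifs, as the pair of NF-κB matches shown. Among all 32851 windows 1.63% held the NF-κB letters, 3.44% the interferon response element and 8.30% the gamma-activated site. A match is a description of the letters and not evidence of binding.

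In control cells the members spanned a wide range of levels. Ninj1 was highest with a mean of 60.9 FPKM, followed by Gsdmd at 28.0, Nlrp3 at 21.6, Casp1 at 17.5, Nek7 at 10.1, Nlrp1b at 3.26, Casp4 at 1.33, Nlrc4 at 0.621 and Pycard at 0.178 FPKM. The libraries of Gsdmd and Nlrp3 overlapped, as did those of Nlrp3 and Casp1, and the other neighbours in this order did not. With LPS, Nlrp3 moved to the top of the order and Casp4 rose above Nek7 and Nlrp1b, and no neighbours overlapped. With LPS + G-CDs, Nlrp3 and Ninj1 shared the top with overlapping libraries, and Casp1 and Gsdmd overlapped below them. Nlrc4 and Pycard stayed at the bottom of the order in all 3 groups.

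**Figure D1:**
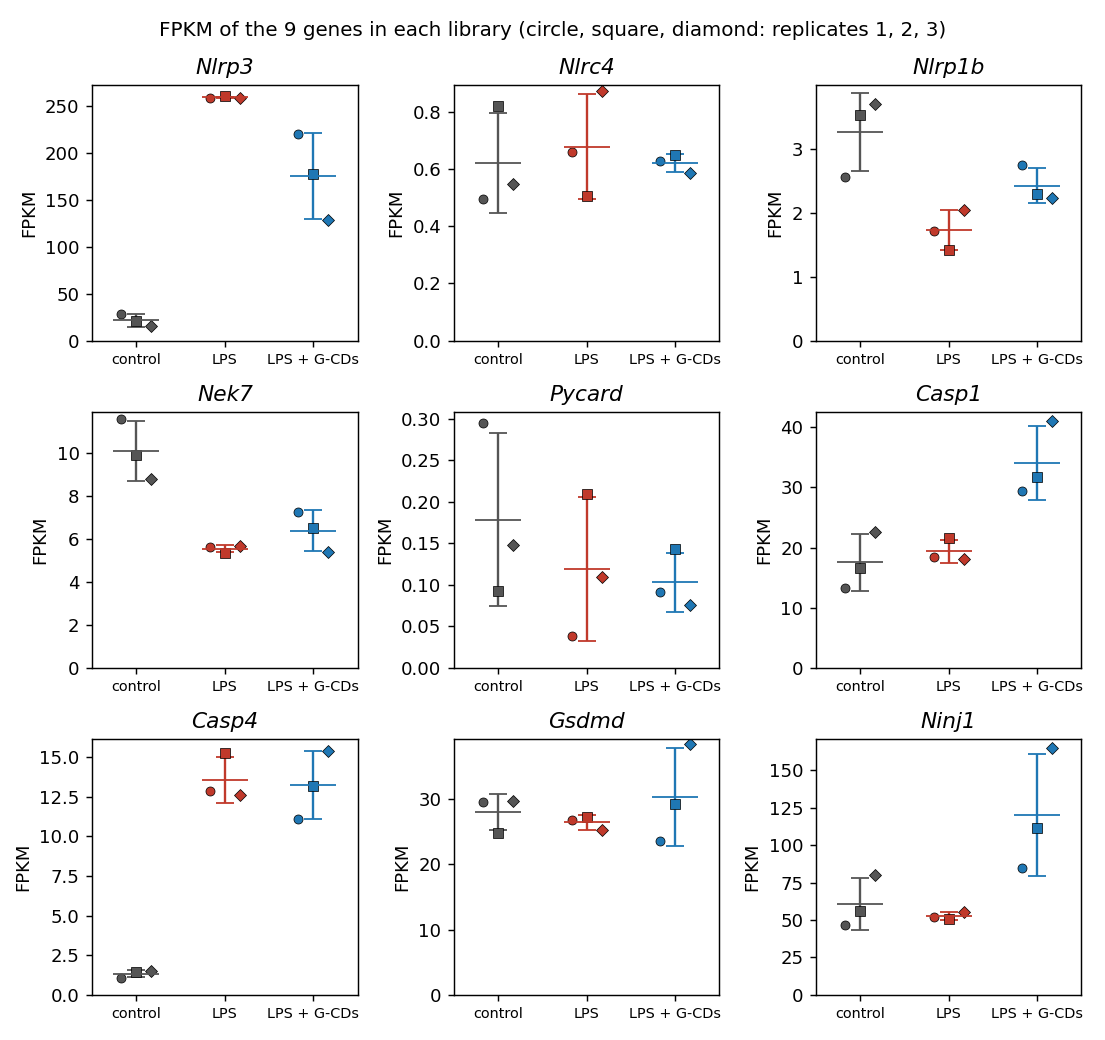
FPKM of each of the 9 genes (vertical axis, linear, from 0) in the control, LPS and LPS + G-CDs libraries, with 1 point per library, a wide line for the group mean and bars for the SD (n = 3). Nlrp3 and Casp4 separate the LPS libraries from the control libraries, Casp1 and Ninj1 are highest in the 3 LPS + G-CDs libraries, and Pycard stays below 0.3 FPKM in every library.

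Of the 9 genes, 7 reached 1 FPKM in at least 3 libraries and were tested among the 11585 genes that did so. Nlrc4 and Pycard did not. A gene was called when its Benjamini-Hochberg adjusted p in limma was under 0.05, and fold changes are on the log2(FPKM + 1) scale, which understates the change of low genes. Between LPS and control cells 4 of the 7 were called, Nlrp3 and Casp4 higher and Nek7 and Nlrp1b lower. Of all genes tested 31.3% were called in this comparison, 15.8% higher and 15.6% lower. The libraries of the groups did not overlap in the same 4 genes, against 52.5% of all genes tested. The median log2 fold change of the 7 was -0.08, and that of all genes tested was 0.02. The direction of calls over all genes depended on the scaling. With TPM, which gives each library the same sum, the median of all genes went to -0.23 and the 1827 higher and 1803 lower genes became 1003 and 3059. The 4 members kept their calls and directions under TPM.

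The sensor Nlrp3 recognises disturbances such as potassium loss and is on the + strand of chromosome 11 (GRCm38, 59541568 to 59566956). Its levels were 28.8, 20.7 and 15.3 FPKM in the control libraries, 260, 261 and 259 FPKM in the LPS libraries, and 220, 178 and 129 FPKM in the LPS + G-CDs libraries. The 3 LPS libraries lay within 2 FPKM of each other and far above every control library, and the LPS + G-CDs libraries lay between the other groups. Nlrp3 rose 12.0-fold with LPS in mean FPKM, or 3.57 on the log2 scale with a standard error of 0.25 (limma adjusted p = 9.5e-06). At 260 FPKM only 150 of 22046 protein-coding genes had a higher mean in LPS cells, against 2301 in control cells. In RNA from bulk cells, a change in the share of cells that make a transcript and a change in the amount per cell cannot be told apart.

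Nlrc4 builds an inflammasome when NAIP proteins bind bacterial flagellin or secretion needle proteins. It lies on chromosome 17 (74425438 to 74459142, - strand). Its levels were 0.496, 0.820 and 0.546 FPKM in control, 0.658, 0.505 and 0.873 in LPS, and 0.629, 0.649 and 0.587 in LPS + G-CDs libraries. The groups overlapped throughout, and the reads summed over a group were 156, 136 and 133 in this order. In the fit without a filter on low values its log2 fold changes were 0.05 with LPS and -0.04 between LPS + G-CDs and LPS (limma adjusted p = 0.88 and 0.90). A processed pseudogene, CT033749.1, lies within Nlrc4 on the same strand and was at 0.69 FPKM in control cells, so some reads could belong to either.

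Nlrp1b is a sensor that is set free when anthrax lethal factor or other proteases degrade its front part. It lies on chromosome 11 (71153102 to 71230733, - strand). It was at 2.56, 3.53 and 3.70 FPKM in control, 1.72, 1.41 and 2.04 FPKM in LPS, and 2.74, 2.29 and 2.24 FPKM in LPS + G-CDs libraries. Every LPS library lay below every control library. Nlrp1b fell by 0.64 on the log2 scale with LPS (standard error 0.15, limma adjusted p = 0.012). Leaving out LPS replicate 2 ended this call (adjusted p = 0.053), and under a filter of 5 FPKM the gene was not tested. Of the 50-base words of its longest transcript 2.08% also occur in Nlrp1a or Nlrp1c-ps, so reads on those stretches are uncertain.

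Nek7 is a kinase that binds Nlrp3 and is needed for it to assemble. It lies on chromosome 1 (138482875 to 138620141, - strand). Its levels were 11.6, 9.88 and 8.79 FPKM in control, 5.60, 5.36 and 5.68 FPKM in LPS, and 7.27, 6.50 and 5.38 FPKM in LPS + G-CDs libraries. The LPS libraries all lay below the control libraries, at 0.55 times the control mean. Nek7 fell by 0.75 on the log2 scale (standard error 0.14, limma adjusted p = 0.003) while its partner Nlrp3 rose. The LPS + G-CDs libraries overlapped the LPS libraries and stayed below every control library.

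Pycard encodes ASC, the adaptor that links Nlrp3 to caspase-1, and lies on chromosome 7 (127989708 to 127993867, - strand). Its levels were 0.295, 0.0927 and 0.148 FPKM in control, 0.0381, 0.210 and 0.109 FPKM in LPS, and 0.0910, 0.143 and 0.0749 FPKM in LPS + G-CDs libraries. Behind these values stood 21, 6 and 10 reads in control, 2, 11 and 6 in LPS, and 5, 9 and 4 in LPS + G-CDs libraries. Reads were assigned to Pycard in every library, at a very low level and in LPS replicate 1 below the floor of 3 reads, and the groups overlapped. By mean FPKM, between 10903 and 11333 of the 22046 protein-coding genes were above it, depending on the group. The sums of 37, 19 and 18 reads have exact 95% Poisson intervals of 26.1 to 51.0, 11.4 to 29.7 and 10.7 to 28.4, which cover counting error only. Without a filter on low values the log2 fold change with LPS was -0.07 (limma adjusted p = 0.62) and that between LPS + G-CDs and LPS was -0.02 (adjusted p = 0.96).

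The neighbours of Pycard were not uniformly low. Itgam, the integrin subunit CD11b of macrophages, averaged 8.59 FPKM in control, 12.5 in LPS and 9.13 in LPS + G-CDs cells. Trim72, between Pycard and Itgam, was at most 0.13 FPKM in any library, and the protease gene Prss36 at most 0.575 FPKM. Some of the few Pycard reads may not be its own. The gene Gm45205, annotated for experimental checking, overlaps its start on the opposite strand with group means of 0.0419 to 0.122 FPKM, and strand marking is not described for these libraries. Of the 50-base words of the Pycard transcript 11.8% also occur in Gm45205 or Mvp. FPKM per gene does not show which exons the reads lie on.

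Casp1 cuts the interleukin precursors and Gsdmd, and Casp4 responds to cytosolic LPS. The 2 genes are neighbours on the + strand of chromosome 9, Casp1 from 5298517 to 5307265 and Casp4 from 5308828 to 5336783, with 1562 bases between them. Casp1 was at 13.2, 16.7 and 22.6 FPKM in control, 18.5, 21.5 and 18.1 FPKM in LPS, and 29.3, 31.8 and 41.1 FPKM in LPS + G-CDs libraries. The control and LPS libraries overlapped, and the log2 fold change with LPS was 0.16 (95% interval -0.29 to 0.62, limma adjusted p = 0.58). Its sign was not stable, since TPM gave -0.09 and leaving out control replicate 1 gave -0.01. Casp4 was at 1.09, 1.42 and 1.48 FPKM in control, 12.9, 15.2 and 12.6 FPKM in LPS, and 11.1, 13.2 and 15.4 FPKM in LPS + G-CDs libraries. Both LPS-treated groups lay far above control and overlapped each other. Casp4 rose 10.2-fold with LPS in mean FPKM, or 2.64 on the log2 scale with a standard error of 0.14 (limma adjusted p = 2.1e-06). None of the 50-base words of the Casp1 or Casp4 transcripts occur in other genes (0.0%), so the 2 neighbours can be told apart by sequence. The windows of Casp1 and of Nlrp3, which also rose, held no match to the NF-κB site. Any link between the matches in the Casp4 window and its level was not tested.

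Gsdmd forms the pore once its front part is released. It lies on chromosome 15 (75862327 to 75867408, + strand) and was at 29.5, 24.8 and 29.6 FPKM in control, 26.7, 27.3 and 25.2 FPKM in LPS, and 23.5, 29.1 and 38.3 FPKM in LPS + G-CDs libraries. All 3 groups overlapped. The log2 fold change with LPS was -0.08 (95% interval -0.47 to 0.31, limma adjusted p = 0.77). With TPM it became -0.35 (adjusted p = 0.041), with the median of all genes at -0.23 under that scaling. Ninj1, which clusters in the membrane and tears it at the end of lytic death, lies on chromosome 13 (49187485 to 49196244, + strand). It was at 46.7, 55.9 and 80.3 FPKM in control, 52.3, 50.4 and 55.2 FPKM in LPS, and 84.9, 111 and 165 FPKM in LPS + G-CDs libraries. Control and LPS libraries overlapped, with a log2 fold change of -0.17 (95% interval -0.76 to 0.42, limma adjusted p = 0.66). The transcripts of the executioners thus kept overlapping levels with LPS, while those of Nlrp3 and Casp4 rose.

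**Figure D2:**
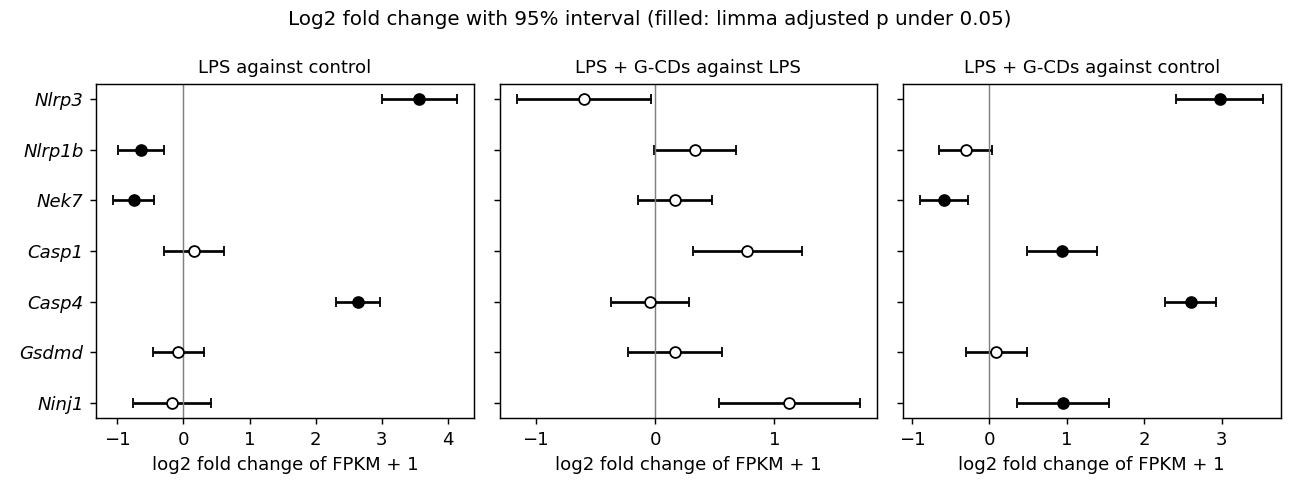
Log2 fold change of FPKM + 1 (horizontal axis) of the 7 tested genes in the 3 comparisons, with 95% intervals, where filled points have a limma adjusted p under 0.05. Nlrp3 and Casp4 are called higher against control in both LPS-treated groups, and none of the 7 is called between LPS + G-CDs and LPS.

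Between LPS + G-CDs and LPS cells, none of the 7 tested members was called by limma (0 of 7), against 0.492% of all genes tested. Voom on the recovered reads also called 0. At an unadjusted p under 0.05 there were 3 of the 7, Nlrp3 lower and Casp1 and Ninj1 higher, where 1765 of the 11585 genes tested reached it. In 4 of the 7, those 3 and Nlrp1b, the LPS + G-CDs libraries did not overlap the LPS libraries, against 27.9% of all genes tested. The median log2 fold change of the 7 was 0.17, and that of all genes tested was 0.02.

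Nlrp3 was at 176 ± 45.8 FPKM with LPS + G-CDs and 260 ± 0.881 FPKM with LPS (SD, n = 3). All 3 LPS + G-CDs libraries lay below the LPS libraries, the nearest at 220 FPKM and the farthest at 129 FPKM. The log2 fold change was -0.59 (95% interval -1.16 to -0.03, unadjusted p = 0.041, limma adjusted p = 0.32). It was -0.39 (adjusted p = 0.78) without LPS + G-CDs replicate 3 and -0.77 (adjusted p = 0.077) without replicate 1. It was -0.63 (adjusted p = 0.29) once the trend with gene length was removed.

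Ninj1 was at 120 ± 40.7 FPKM with LPS + G-CDs and 52.6 ± 2.43 FPKM with LPS (SD, n = 3), a ratio of 2.29. Its log2 fold change was 1.13 (95% interval 0.53 to 1.72, unadjusted p = 0.002, limma adjusted p = 0.15). Every LPS + G-CDs library exceeded every LPS library, and replicate 3 was the highest. Without replicate 3 the value was 0.87 (adjusted p = 0.31). The call depended on the processing, since it passed the threshold without LPS + G-CDs replicate 1 (1.35, adjusted p = 0.044) and with the gene-length trend removed (0.89, adjusted p = 0.049). Casp1 was at 34.1 ± 6.23 FPKM with LPS + G-CDs and 19.4 ± 1.88 FPKM with LPS (SD, n = 3). Its log2 fold change was 0.77 (95% interval 0.32 to 1.23, unadjusted p = 0.004, limma adjusted p = 0.18), and 0.63 without replicate 3. With the length trend removed it was 0.54 (adjusted p = 0.14). Each LPS + G-CDs library was above every LPS and control library in both genes.

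The LPS + G-CDs libraries spread in a way that followed gene length. Replicate 3 was the highest of the 3 in Casp1, Ninj1, Gsdmd and Casp4, the shortest tested members at 1497, 1570, 2377 and 3710 bases. It was the lowest of the 3 in Nlrp3, Nlrp1b and Nek7, the longest tested members at 4057, 6305 and 7376 bases. Among short genes of the whole table, with a median of 330 bases, the median deviation from the group mean was likewise highest in replicate 3, at 0.174, and was -0.0945 in replicate 1. The values with the trend removed stand beside Nlrp3, Ninj1 and Casp1 above, and for Gsdmd the value went from 0.17 to -0.01 and for Nek7 from 0.16 to 0.32 (adjusted p = 0.17).

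For the other 4 members the intervals of the difference included 0. Casp4, with overlapping libraries, had -0.04 (95% interval -0.37 to 0.29, limma adjusted p = 0.88). Nlrp1b had 0.33 (95% interval -0.01 to 0.68, adjusted p = 0.33), with each LPS + G-CDs library above each LPS library. Nek7 had 0.16 (interval -0.14 to 0.47, adjusted p = 0.47), which became 0.08 without LPS + G-CDs replicate 1, 0.27 without replicate 3 and 0.02 under TPM. Gsdmd had 0.17 (interval -0.22 to 0.56, adjusted p = 0.56). The direction of Gsdmd turned to -0.01 without LPS + G-CDs replicate 3.

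Against control cells, LPS + G-CDs cells had 5 of the 7 members called, against 25.3% of all genes tested. Nlrp3, Casp4, Casp1 and Ninj1 were higher and Nek7 was lower. These 5 also did not overlap between groups, against 34.3% of all genes tested, and the median log2 fold change was 0.94 for the 7 and 0.02 for all genes. This comparison shares its control libraries with that of LPS against control, so the values are given side by side. Casp1 had 0.94 (limma adjusted p = 0.0086) here against 0.16 with LPS alone, and Ninj1 had 0.95 (adjusted p = 0.027) against -0.17. Nlrp3 had 2.98 against 3.57 (adjusted p = 3.6e-05 in the first) and Casp4 had 2.60 against 2.64 (adjusted p = 2.7e-06). Nek7 had -0.59 (adjusted p = 0.013) against -0.75. With TPM 7 members were called, 4 higher and 3 lower, since Gsdmd (-0.34) and Nlrp1b joined Nek7. Under that scaling 3979 of all 11585 genes tested were called, 761 higher and 3218 lower, and their median went to -0.38 over all genes. The call of Ninj1 was lost in 6 of 19 alternatives, among them leaving out LPS + G-CDs replicate 3 (0.70, adjusted p = 0.056), LPS + G-CDs replicate 2 (0.98, adjusted p = 0.072), control replicate 1 (0.78, adjusted p = 0.086) or control replicate 2 (0.91, adjusted p = 0.08). In the fit of the 6 libraries alone Nek7 also lost its call (adjusted p = 0.059).

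The other genes of the pathway were taken from a list of 60 symbols grouped by role, all found, of which 49 were tested. With LPS, 30 of the 49 were called against control, 24 higher and 6 lower, where 31.3% of all genes tested were called, 15.8% higher and 15.6% lower. Of the 49, 11 did not reach 1 FPKM in every library and so passed the filter through the groups where they were higher, among them Nlrp10 through the control libraries. These counts over the list are descriptions for that reason, while the 7 tested members reached 1 FPKM in every library. The median log2 fold change of the 49 with LPS was 0.45, and it did not change with Gbp5 set to its bound below. Under TPM the split was 16 higher and 10 lower, against 1003 higher and 3059 lower over all genes tested. With LPS + G-CDs against LPS, 2 of the 49 were called, both lower, against 0.492% of all genes tested. At an unadjusted p under 0.05 there were 13 of the 49 and 1765 of the 11585 genes tested, and the median of the 49 was -0.13. Against control, 28 of the 49 were called with LPS + G-CDs, against 25.3% of all genes tested. They were 22 higher and 6 lower, with a median of 0.41 over the 49. TPM gave 17 higher and 12 lower, against 761 higher and 3218 lower over all genes tested.

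The list holds 5 interleukin genes, the cytokines Il1a, Il1b and Il18 and the antagonists Il1rn and Il18bp, and each was called higher with LPS. Only Il18 reached 1 FPKM in all 3 control libraries, so the other 4 passed the filter through the LPS-treated groups and their number is not read against the background. Il1b was at 0, 0.0308 and 0 FPKM in control, 418, 432 and 420 FPKM in LPS, and 297, 339 and 412 FPKM in LPS + G-CDs libraries. Il1b thus had at most 1 read in a control library and over 400 FPKM in each LPS library, and its LPS + G-CDs libraries lay below the LPS libraries without a call (log2 fold change -0.29, limma adjusted p = 0.33). Il1a, which signals through the same receptor, was at 0, 0 and 0.0853 FPKM in control, 146, 159 and 138 FPKM in LPS, and 89.7, 76.7 and 68.2 FPKM in LPS + G-CDs libraries. Il18, the other substrate of caspase-1, was at 4.24, 5.81 and 10.2 FPKM in control, 21.0, 23.7 and 27.6 FPKM in LPS, and 20.3, 27.1 and 30.8 FPKM in LPS + G-CDs libraries. Il18 rose with a log2 fold change of 1.76 (limma adjusted p = 0.0012), and its LPS + G-CDs and LPS libraries overlapped. Il1rn, the receptor antagonist, was at 0.665, 1.32 and 1.46 FPKM in control, 136, 139 and 128 FPKM in LPS, and 55.4, 51.4 and 46.7 FPKM in LPS + G-CDs libraries. Il1a and Il1rn were the 2 genes called lower with LPS + G-CDs, at -0.91 and -1.38 (limma adjusted p = 0.023 and 0.009). The call of Il1rn held in 14 of 19 alternatives and was lost without LPS replicate 1 or 2 or LPS + G-CDs replicate 2 (adjusted p = 0.067 to 0.074). That of Il1a held in 9 of 19 and was lost without any of the 3 LPS libraries, LPS + G-CDs replicate 2 or 3, or control replicate 2 (adjusted p = 0.056 to 0.15). Without LPS + G-CDs replicate 2 the pathway list had 0 calls, and without replicate 1 it had 3. Over all 11585 genes tested the 57 calls became 11 and 256 in the same 2 fits.

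Among the other sensors, Aim2, which binds cytosolic DNA, rose by 0.76 on the log2 scale (limma adjusted p = 0.0039) and Naip2, a partner of Nlrc4, by 0.60 (adjusted p = 0.02). Naip5, the flagellin-binding partner, had 0.22 (adjusted p = 0.2). Nlrp10, which reached 1 FPKM in the control libraries alone, fell by 0.99 (adjusted p = 0.0018). The guanylate-binding proteins coat bacteria and expose their LPS to caspase-11. Gbp2, Gbp3, Gbp5 and Gbp7 were at no more than 0.229 FPKM in any control library and passed the filter through the LPS-treated groups, so they could only be called higher, and the fifth gene of this group was not tested. Gbp5 was at 0 in all 3 control libraries and at 1.72 ± 0.18 FPKM with LPS (SD, n = 3), at least 64.7-fold higher than the floor of 3 reads in a control library.

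Casp8, a caspase that can also start lytic death, rose by 0.49 on the log2 scale with LPS (limma adjusted p = 0.0098). Casp12 was listed at 0 in all libraries. Necroptosis is a form of lytic death that does not use gasdermins. Of its genes Zbp1, a sensor of left-handed nucleic acid, rose by 4.05 (adjusted p = 2.4e-08) from at most 0.191 FPKM in any control library, so it too passed the filter through the LPS-treated groups. The pore protein Mlkl rose by 1.20 (adjusted p = 6.6e-05), and the adaptor Fadd fell by 0.66 (adjusted p = 0.0044). Mlkl was at 23.9 FPKM with LPS + G-CDs and 16.2 FPKM with LPS on average, a log2 fold change of 0.54 without a call (adjusted p = 0.11).

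Among the upstream channels and regulators, Trim30a, a regulator of Nlrp3 activation, rose by 3.74 (limma adjusted p = 1.1e-06), and Panx1, a channel that releases ATP, fell by 1.04 (adjusted p = 0.0003). No other gasdermin was tested (0 of 3). Gsdme, another pore-forming gasdermin, was between 0.435 and 0.939 FPKM over the 9 libraries, so Gsdmd was the only gasdermin examined that passed the filter.

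**Figure D3:**
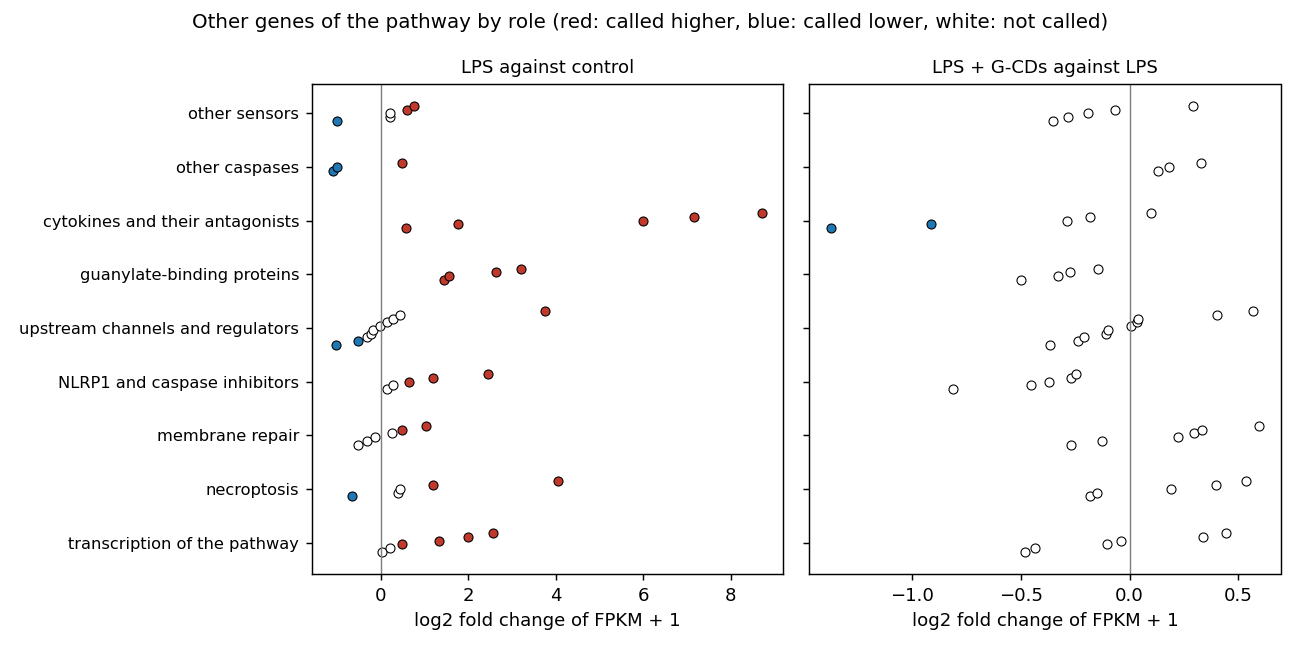
Log2 fold change of FPKM + 1 (horizontal axes, with different ranges) of the 49 tested pathway genes that are not among the 9, by role, for LPS against control and LPS + G-CDs against LPS, where each point is a gene. Red and blue points are called higher and lower: Il1b, Il1a and Il1rn lie farthest to the right in the left panel, and only Il1rn and Il1a are called in the right panel.

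The genes whose profiles were nearest to each tested member were found by the root mean square difference of log2(FPKM + 1), centred on each gene over the 9 libraries. For Nlrp3 they were Parp14 and Odc1 (differences of 0.18 and 0.23), and for Casp4 Actg1 and Phf11d (0.11 and 0.13). Parp14 went from between 2.27 and 3.76 FPKM in control to between 51.9 and 57.2 FPKM in LPS libraries, and it was at 57.0, 38.5 and 26.1 FPKM in the LPS + G-CDs libraries. It shared with Nlrp3 the spread between the LPS + G-CDs libraries. For Casp1 they were Fcrl1 and Serinc2 (0.13 and 0.15), for Ninj1 S100a13 and Eif4ebp1 (0.15 and 0.16), and for Gsdmd Ufm1 and Txnrd2 (0.05 and 0.05). S100a13 was at 18.7, 21.8 and 37.1 FPKM in the LPS + G-CDs libraries and between 10.8 and 13.8 FPKM in the LPS libraries. For Nek7 they were Nectin3 and Tarsl2 (0.05 and 0.08), and for Nlrp1b Tmem246 and Bag2 (0.11 and 0.11). These distances describe the 9 libraries and carry no test.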

How the data were processed

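RNA was sequenced from RAW264.7 cells in 3 groups of 3 libraries. Per the labels and methods, the authors made poly-T selected libraries, sequenced them on an Illumina NovaSeq and deposited an FPKM value per gene and library, with gene coordinates and lengths. The submitters' processing notes name GRCm38 and mm10, and the aligner, the counter and the test are not given in the sources used here. Gene coordinates equaled GENCODE mouse release 21 for 53499 of 54409 shared genes.

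FPKM multiplied by gene length and by the library size the authors had used, which was found from the steps between low values, gave whole reads (100.0% within 0.05 reads). That size was 0.88 to 1.14 times the reads on genes. The reads were used for depth, the floor of 3 reads and voom. Genes at 1 FPKM or more in 3 or more libraries were fitted as log2(FPKM + 1) with limma 3.58.1 in R 4.3.3 (1 model of the 9 libraries, eBayes with trend, two-sided). The fit was run on simulated reads with a common spread in all groups and no trend with gene length, unlike these data. Python 3.11.15 with pandas 2.3.3 prepared tables. Shared sequence is the share of 50-base words of the longest transcript found in other genes. Promoter windows are from RefSeq (GRCm38.p6). Of the value columns, 0 were of other samples.

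The members, lists and tests were chosen with earlier results of these data known. Named were all members, 10 pathway genes named beforehand (Il1a, Il1b, Il18, Aim2, Naip2, Naip5, Gbp5, Casp8, Mlkl, Gsdme), pathway genes called between LPS + G-CDs and LPS, the 5 largest rises and 5 largest falls of the pathway list with LPS, and the 2 nearest profiles of each tested member. Some genes that this rule names are not reported here. Casp12, Il18bp, Gbp2, Gbp3, Gbp7 and the genes beside Pycard were named after their values were seen. Replicate numbers are shared between groups, and their meaning is not stated. Same-numbered control and LPS libraries deviated together (r = 0.103, 0.137 and 0.113 across genes), which by the limit of 0.1 pairs them.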

Additional observations from a re-analysis of the deposited data

How the results depend on the processing

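The alternatives were a pseudocount of 0.1, no filter, a filter of 5 FPKM, scaling by TPM or by median-of-ratios factors, only the 6 libraries compared, eBayes with no trend, voom, removal of the gene-length trend, the replicate number as a block, and leaving out each library. Nlrp3 and Casp4 kept their calls against control in all 19, with log2 fold changes with LPS of 3.35 to 3.79 and 2.56 to 3.35. Members called between LPS + G-CDs and LPS, 0 in the report, came to 1 (Ninj1) with the length trend removed and to 0 to 1 with a library left out. Against control, LPS + G-CDs had 3 called members with the 6 libraries alone and 4 to 5 with a library left out. With the 6 libraries alone, which leave out the closer LPS replicates, 1789 of all genes tested were called in this comparison, against 2927. Pathway genes called between LPS + G-CDs and LPS, 2 in the report, came to 0 with a pseudocount of 0.1 or TPM, 1 with the 6 libraries alone or voom, and 0 to 3 with a library left out. Over all genes tested the 57 calls became 25 with a pseudocount of 0.1, 27 with TPM, 25 with the 6 libraries alone and 45 with voom. They became 88 with the length trend removed and 11 to 256 with a library left out. TPM shifted the median of all genes to -0.23, -0.14 and -0.38 in the 3 comparisons, and the cause of the other changes was not tested.

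Several differences that were not called changed sign. For Casp1 with LPS, TPM gave -0.0931, and leaving out a library gave -0.0086 (without control replicate 1) to 0.356. For Ninj1 with LPS, leaving out a library gave -0.343 to 0.0415 (without control replicate 3). For Casp4 between LPS + G-CDs and LPS it gave -0.149 to 0.0698, positive without LPS replicate 2 (0.0402) or LPS + G-CDs replicate 1. For Gsdmd, removal of the length trend gave 0.0341 with LPS and -0.0126 between LPS + G-CDs and LPS, and TPM gave -0.343 between LPS + G-CDs and control. Leaving out a library gave Gsdmd -0.0097 to 0.332 between LPS + G-CDs and LPS and -0.0874 to 0.254 between LPS + G-CDs and control, the lower value of each without LPS + G-CDs replicate 3.

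With the replicate number as a block, no member's call changed, and Ninj1 and Nlrp3 had limma adjusted p-values of 0.055 and 0.17 between LPS + G-CDs and LPS. The pathway genes called were 31, 2 and 28 under the block, against 4104, 53 and 3347 of all 11585 genes tested. The deviations of same-numbered libraries correlated at 0.095, 0.08 and 0.143 between LPS + G-CDs and LPS. Between LPS + G-CDs and control they correlated at 0.28, 0.057 and 0.653. Neither set was above 0.1 throughout, and a pairing was not established in any comparison. Depth limits Pycard and Nlrc4 most, at 2 to 21 and 33 to 66 reads a library.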
